A study of Mus musculus with 31 samples.

Results

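The 10 genes described here encode calcium buffers (Calb1, Calb2 and Pvalb), calcium-binding proteins related to calmodulin (Cabp1 and Cabp7) and neuronal calcium sensors (Ncs1, Hpca, Hpcal1, Vsnl1 and Ncald). They were taken by gene symbol from the annotated expression table and matched by Ensembl identifier to the raw counts. All 10 were found among 55421 mouse genes, and all 10 belong to the 17754 measured genes, those read in 25% or more of the cells in either group. The libraries came from 31 single neurons of acute mouse brainstem slices. There were 18 lateral olivocochlear (LOC) neurons of the lateral superior olive and 13 medial olivocochlear (MOC) neurons from the ventral nucleus of the trapezoid body. Both groups came from ChAT-IRES-Cre; tdTomato mice, in which cells that have used the promoter of choline acetyltransferase carry a red protein, and both were recorded by patch clamp before the cytoplasm was drawn up. The labels give the genotype of every cell as wild-type and name no age, sex or animal. Each group therefore counts as 1 sample, no difference was tested, and an SD below is a spread between cells.

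Calcium enters a neuron in brief local rises, and buffers such as calbindin, calretinin and parvalbumin bind it and so shape how large and how long each rise is. Sensors of the NCS family bind calcium through EF-hand loops, and several of them then move to membranes, where they act on channels, receptors and enzymes. Buffers are widely used as markers of cell classes in the auditory brainstem, where principal cells of the medial nucleus of the trapezoid body are known for calbindin and parvalbumin. Purkinje cells of the cerebellum are also known for calbindin and parvalbumin, and cerebellar granule cells for calretinin.

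Promoter windows from RefSeq (GRCm38.p6) were available for 7 of the 10 genes. Shown are the 150 bases upstream of the first listed start of Pvalb, the gene with the highest level per kb, and of Cabp1 and Cabp7, the 2 genes that met the size rule given below. They read 5′ to 3′ on the minus strand, and capitals mark the motif GGGCGG (a GC box) or TATTTA, searched on both strands with overlaps counted. The windows are chr15:78206401-78206550 for Pvalb, chr5:115194382-115194531 for Cabp1 and chr11:4747180-4747329 for Cabp7.
Pvalb: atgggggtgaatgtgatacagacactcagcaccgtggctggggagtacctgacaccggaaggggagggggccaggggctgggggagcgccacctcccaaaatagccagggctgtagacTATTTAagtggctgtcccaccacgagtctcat
Cabp1: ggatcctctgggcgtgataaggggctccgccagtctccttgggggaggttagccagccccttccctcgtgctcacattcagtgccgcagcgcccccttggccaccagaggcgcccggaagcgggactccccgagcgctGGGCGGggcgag
Cabp7: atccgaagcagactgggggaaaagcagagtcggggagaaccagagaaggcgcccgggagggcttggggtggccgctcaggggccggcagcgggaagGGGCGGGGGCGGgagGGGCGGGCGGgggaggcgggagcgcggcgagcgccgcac
The Pvalb window held 1 TATTTA and no GGGCGG, the Cabp1 window 1 GGGCGG, and the Cabp7 window 4. None of the 3 held TATAAA. Of 32851 windows of the same length, 28.6% held GGGCGG, 7.17% TATTTA and 7.57% TATAAA on either strand. The 3 windows had 60%, 70.7% and 76.7% G and C.

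The total per library was 356412 to 1404896 counts in LOC and 598028 to 2627174 in MOC. A count of 0 therefore allows up to 2.14 to 8.42 counts per 1000000 (CPM) in a LOC cell and 1.14 to 5.02 CPM in a MOC cell. At least 10 reads of the cholinergic genes Chat, Slc18a3 and Slc5a7 together were found in 14 of 18 LOC libraries and 8 of 13 MOC libraries. LOC cells 14 and 16 and MOC cell 8 had 0 such reads. LOC cell 14 and MOC cell 13 stood apart by genes of forebrain excitatory neurons (Neurod6, Tbr1, Nrgn and Camkv), a list made after values were seen. They held 2489 CPM and 2246 CPM of these, against medians of 27.4 CPM for LOC and 49.6 CPM for MOC. In LOC cell 14 the sum came from Nrgn (1255 CPM), Camkv (853 CPM) and Neurod6 (369 CPM). In MOC cell 13 it came from Camkv (1740 CPM) and Nrgn (498 CPM) alone, with Neurod6 at 0. Tbr1 set neither library apart, with 12.8 CPM in LOC cell 14 (LOC median 10.98) and 8.63 CPM in MOC cell 13 (MOC median 13.4). Reads of cerebellar granule cell markers (Gabra6, Cbln3, Fat2, Neurod1 and Zic1), also listed after values were seen, were present in every library. Summed, they ran from 5.68 to 1831 CPM for LOC (median 581) and from 5.76 to 1229 CPM for MOC (median 398). Markers of Purkinje cells (Pcp2, Car8 and Itpka) ran from 10.8 to 2029 CPM for LOC (median 309) and from 19.3 to 1450.4 CPM for MOC (median 216). Car8 alone gave 1762 CPM in LOC cell 7 and 1370 CPM in MOC cell 2, the cells with the highest sums. LOC cell 14 and MOC cell 13 had sums of 89.4 and 33.1 CPM, with Pcp2 at 0 in both and Car8 at 1.42 and 0 CPM. All 5 granule cell and all 3 Purkinje cell markers were read in both groups. Oligodendrocyte markers were summed to medians of 31935 CPM for LOC and 43565 CPM for MOC, and markers of glycine and GABA neurons reached 949 CPM for LOC and 2990.2 CPM for MOC, the last in MOC cell 8. All 7 microglial markers used had a lower mean in LOC, 3 of them (C1qb, Csf1r and Cx3cr1) met the size rule given below in MOC, and their sum ran from 25.8 to 1737 CPM for LOC (median 101) and from 40.7 to 4991 CPM for MOC (median 409).

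Most of the 10 genes were read in nearly every cell, and the groups overlapped for all of them. The size rule asks for a summed CPM 2 or more times as high in one group, a mean of log2(CPM + 1) that exceeds the other by 1 or more, and a read in no fewer than 25% of the cells. By this rule 0 of the 10 genes were higher in LOC and 2 in MOC, Cabp1 and Cabp7. Over all measured genes, 6.07% met it in LOC and 5.67% in MOC, or 2.87% and 2.68% of the 37546 genes with any read. The counts of 0 and 2 among 10 genes were not tested against these shares. The median difference, LOC minus MOC, was 0.10 over the 10 genes and -0.07 over all 17754. With the size factors of DESeq2 the number of genes that met the rule was 844 in LOC and 1325 in MOC, in place of 1078 and 1007.

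**Figure D1:**
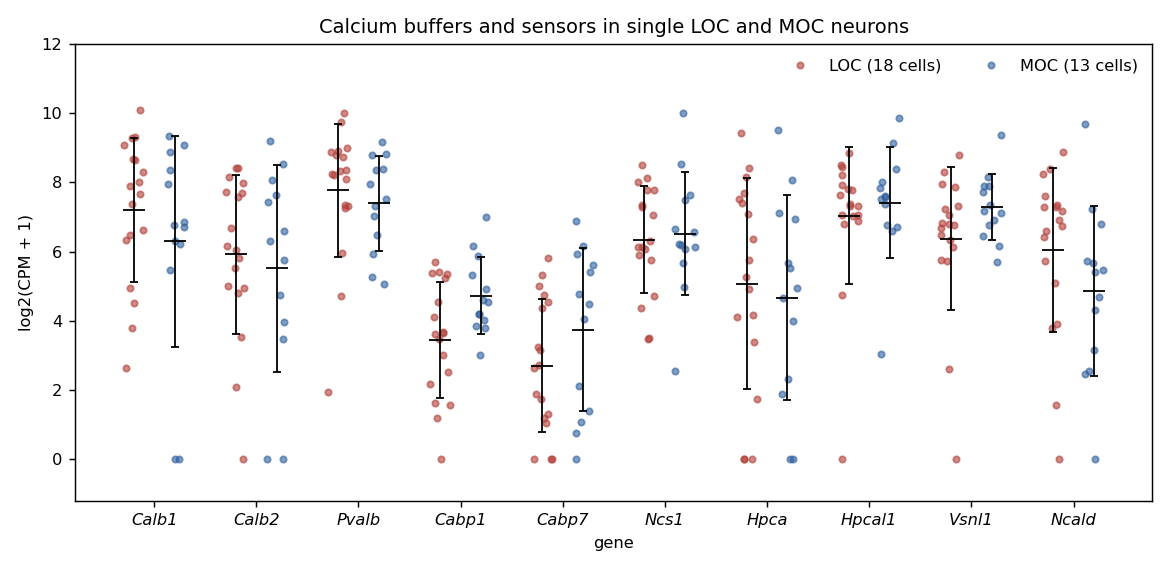
Level of each gene as log2(CPM + 1) on the vertical axis, 1 point per cell, for 18 LOC and 13 MOC cells, with bars for the mean and SD over cells. The groups overlap for every gene, and Cabp1 has means of 3.46 in LOC and 4.73 in MOC.

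Pvalb, which encodes the slow buffer parvalbumin of many fast-spiking neurons, had reads in all 18 LOC and all 13 MOC cells (exact 95% Clopper-Pearson intervals 81.5% to 100% and 75.3% to 100%). Its place in GRCm38 is chromosome 15, 78191114 to 78206400 (ENSMUSG00000005716, minus strand). The lowest, median and highest cell had 2.84, 314 and 1033 CPM for LOC, and 32.4, 184 and 575 CPM for MOC. The lowest LOC cell was LOC cell 14, and the next was LOC cell 1 with 25.5 CPM. In the summed counts Pvalb had 311 CPM for LOC (exact 95% Poisson interval 302 to 321) and 258 CPM for MOC (249.6 to 267). On the log2(CPM + 1) scale it averaged 7.77 ± 1.93 in LOC and 7.39 ± 1.37 in MOC (SD, n = 18 and 13 cells), a difference of 0.38 that is smaller than either SD. In the 11 libraries under 200 CPM of granule cell markers it turned to -0.62, with 116 CPM for LOC and 118 CPM for MOC. These libraries include LOC cell 14, and the turn rests on it. The other 5 LOC cells averaged 6.71 and the 5 MOC cells 6.54. The counting intervals of summed CPM, here and below, take no account of the spread between cells.

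Calb1 encodes calbindin, a fast buffer, and lies on chromosome 4 at 15881264 to 15908064 (plus strand). Across cells the lowest, median and highest values were 5.27, 219 and 1099.9 CPM for LOC and 0, 109 and 643 CPM for MOC. All 18 LOC cells had a read and 11 of 13 MOC cells, with MOC cells 8 and 13 at 0. Summed counts gave 235 CPM for LOC (227 to 243) and 188 CPM for MOC (181 to 196). The mean difference of 0.91 was smaller than the SDs of 2.08 in LOC and 3.04 in MOC. It was 0.38 without MOC cell 8 and turned to -0.45 in the libraries with at least 10 cholinergic reads, where the summed levels were 197 CPM for LOC and 194 CPM for MOC.

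Calb2 encodes calretinin and lies on chromosome 8 at 110137502 to 110168210 (minus strand). From lowest through median to highest, cells had 0, 68.1 and 342 CPM for LOC and 0, 78.7 and 588 CPM for MOC. Reads were found in 17 of 18 LOC cells and 11 of 13 MOC cells, with LOC cell 14 and MOC cells 3 and 13 at 0. The summed level was 117 CPM for LOC (111 to 123) and 139.9 CPM for MOC (134 to 146). By means the difference was 0.41, and it turned to -0.26 with summed counts, -0.21 with medians and -0.05 without MOC cell 3. No direction can be given for Calb2 at this spread.

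The 3 buffer genes went together across cells, and they went with markers of cerebellar cells and, less evenly, of astrocytes. Spearman's rho of log2(CPM + 1) between Calb1 and Pvalb was 0.81 over 18 LOC cells and 0.62 over 13 MOC cells, between Calb1 and Calb2 0.63 and 0.71, and between Calb2 and Pvalb 0.61 and 0.75. The median over all 45 pairs of the 10 genes was 0.13 in LOC and 0.09 in MOC. Of 10973 genes read in no fewer than 50% of the cells, the 3 most like Calb1 over all 31 cells were Gabra6 (rho 0.77), Zic1 (0.75) and Gng13 (0.72). For Calb2 they were Gabra6 (0.84), Neurod1 (0.81) and Zic1 (0.81), and for Pvalb Pcp4 (0.83), Gm13341 (0.79) and Gng13 (0.78). Gabra6 encodes the GABA receptor subunit of cerebellar granule cells, Zic1 and Neurod1 are transcription factors of those cells, and Pcp4, named for Purkinje cells, encodes a protein that binds calmodulin. Pcp4 was at 593 CPM in MOC cell 13, where Pcp2 and Car8 were at 0, and at 0 in LOC cell 14. These correlations are descriptions over cells, and the genes compared share each cell's library and its depth.

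The granule cell list was made after values were seen, and it holds Gabra6, Neurod1 and Zic1, the 3 genes most like Calb2, and Gabra6 and Zic1, the first and second for Calb1. Its correlations with Calb1 and Calb2 therefore follow in large part from that choice and are no separate observation. With the summed granule cell markers, Calb2 had a rho of 0.87 in LOC and 0.89 in MOC, Calb1 0.72 and 0.70, and Pvalb 0.66 and 0.73. With the summed Purkinje cell markers, Calb1 had 0.90 in LOC and 0.57 in MOC, Calb2 0.81 and 0.67, and Pvalb 0.87 and 0.69. With the summed astrocyte markers, Pvalb had 0.68 in LOC and 0.59 in MOC, Calb1 0.52 and 0.51, and Calb2 0.37 and 0.65. Calb2 had 0.67 with oligodendrocyte markers in MOC and 0.03 in LOC, Pvalb 0.50 and 0.46, and Calb1 0.24 and 0.08.

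The other genes differed among themselves in these values. With the granule cell markers, Ncs1 had a rho of -0.05 in LOC and -0.23 in MOC, Ncald -0.15 and -0.24, Cabp1 0.34 and -0.15, Vsnl1 0.32 and 0.29, Cabp7 0.31 and 0.43, and Hpcal1 0.60 and 0.57. With the Purkinje cell markers, Hpcal1 had 0.52 in LOC and 0.57 in MOC, as high in MOC as Calb1, Vsnl1 had 0.51 and 0.39, and Cabp7 0.39 and 0.57. Calb1 also had a rho of -0.76 with the total count over LOC cells and -0.10 over MOC cells, and Pvalb -0.62 and 0.16. With the number of genes read in a cell, Calb1 had 0.22 in LOC and 0.53 in MOC, Calb2 0.34 and 0.67, and Pvalb 0.24 and 0.59. The part of RNA from cerebellar cells or astrocytes, or of depth, in these levels was not tested.

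**Figure D2:**
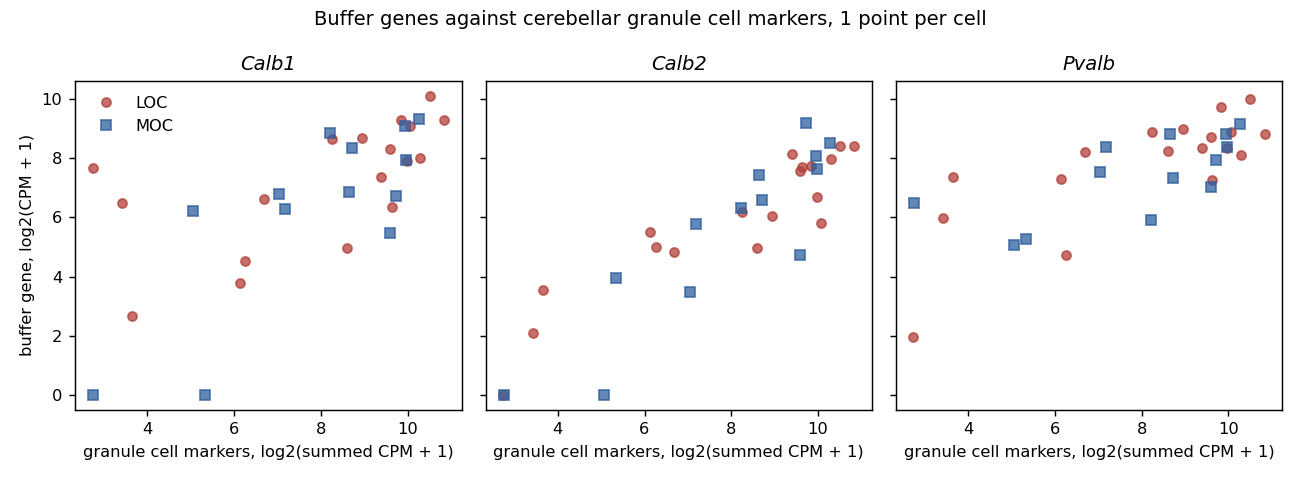
Level of Calb1, Calb2 and Pvalb as log2(CPM + 1) on the vertical axis against log2 of the summed CPM of 5 cerebellar granule cell markers plus 1 on the horizontal axis, 1 point per cell (18 LOC circles, 13 MOC squares). Cells with more granule cell reads lie higher for all 3 genes, and the horizontal axis includes Gabra6, Neurod1 and Zic1, the 3 genes most like Calb2, so that its rho of 0.87 in LOC and 0.89 in MOC follows in large part from the choice of markers.

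Libraries with few granule cell reads still held reads of the buffers. Of the 11 libraries under 200 CPM of these markers, 5 LOC (cells 1, 4, 8, 15 and 17) and 2 MOC (cells 3 and 5) had at least 10 cholinergic reads. In these, Pvalb ran from 25.5 to 297 CPM in the 5 LOC cells and was 32.4 and 184 CPM in the 2 MOC cells. Calb1 ran from 5.27 to 97.6 CPM in those LOC cells and was 73.2 and 109 CPM in those MOC cells. For Calb2 the LOC cells had 3.24 to 44.8 CPM, and the MOC cells 0 and 10 CPM. All of these Calb2 values lie below the medians of all LOC cells (68.1 CPM) and all MOC cells (78.7 CPM). The granule cell list holds the genes most like Calb2, so low Calb2 in these cells follows in large part from how they were chosen. This limit of 200 CPM was chosen after values were seen, and it sets no bound on Purkinje cell markers. Those ran from 10.8 to 198 CPM in these LOC cells and were 43.0 and 182 CPM in these MOC cells. LOC cell 4 and MOC cell 5 had the most of them, and also the most Pvalb and Calb1. LOC cell 15, however, had the fewest (10.8 CPM) with 88.5 CPM of Calb1. LOC cell 1 had 67.3 CPM of Purkinje cell markers and the least Pvalb (25.5 CPM). The part of cerebellar RNA in these buffer reads was not tested.

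Per kb of exon, Pvalb stood highest among the 3 buffers. Compared with Calb1 and Calb2 on that scale it had the most in 17 of 18 LOC cells and 11 of 13 MOC cells. The exceptions were LOC cell 14 and MOC cell 4, where Calb1 led, and MOC cell 6, where Calb2 led. At least 5 reads of each of the 3 buffers were found in 16 of 18 LOC cells and 10 of 13 MOC cells.

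Cabp1 encodes a protein, also known as caldendrin in its longer form, that binds L-type calcium channels and inositol trisphosphate receptors. It lies on chromosome 5 at 115168689 to 115194381 (minus strand, ENSMUSG00000029544). The lowest, median and highest cell had 0, 11.3 and 50.5 CPM for LOC and 7.06, 22.3 and 127 CPM for MOC. LOC cell 14 was the cell at 0, MOC cell 3 was the highest, and the other 12 MOC cells lay at or below 70.2 CPM. Summed counts gave 16.6 CPM for LOC (14.6 to 18.9) and 34.0 CPM for MOC (31 to 37.3), a ratio of 0.49. On the log2(CPM + 1) scale it averaged 3.46 ± 1.67 in LOC and 4.73 ± 1.10 in MOC, a difference of -1.27 that is smaller than the LOC SD and larger than the MOC SD.

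At least 5 reads of Cabp1 were found in 12 of 18 LOC cells and all 13 MOC cells. The difference had the same sign in the 31 recalculations that each leave out 1 cell (-1.42 to -1.07). The ratio passed 0.5, however, in 11 of these, among them the one without MOC cell 3. That cell had 36.2% of all MOC counts, and 24.0 CPM were left without it. Without both LOC cell 14 and MOC cell 13 the difference was -0.98, outside the rule. In libraries with at least 10 cholinergic reads the difference was -1.28 (17.9 CPM for LOC, 40.1 CPM for MOC), and it was -1.32 without LOC cell 9 and MOC cells 8 and 12, the libraries with the most microglial reads. Cabp1 left the rule with summed counts (-0.99) and with medians (-0.92). Under 200 CPM of granule cell markers the difference was -2.39, with 11.9 CPM for LOC and 55.1 CPM for MOC. This set includes LOC cell 14 and the highest MOC cells, which were cells 3, 5 and 13 (127, 70.2 and 57.6 CPM). Its other MOC cells, 8 and 9, had 15.2 and 7.06 CPM. In the libraries at 200 CPM or more, Cabp1 had 19.1 CPM for LOC and 21.6 CPM for MOC. Cabp1 was the least variable of the 10 genes for its level: its SD of 1.58 over all 31 cells was above that of 1.40% of the 500 genes nearest in mean, whose median SD was 2.51.

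Cabp7, which encodes a small Golgi calcium sensor also called calneuron 2, lies on chromosome 11 at 4736892 to 4746778 (minus strand, ENSMUSG00000009075). Its lowest, median and highest cell values were 0, 5.44 and 54.9 CPM for LOC and 0, 21.4 and 117 CPM for MOC. Its reads were found in 15 of 18 LOC cells and 12 of 13 MOC cells. The summed level was 11.9 CPM for LOC (10.2 to 13.9) and 31.4 CPM for MOC (28.5 to 34.5), and MOC cell 2 held 24.5% of the MOC counts. Means of 2.71 ± 1.93 in LOC and 3.74 ± 2.36 in MOC differed by -1.03, which is smaller than either SD. The difference stayed below 0 without any 1 cell (-1.35 to -0.77) but came above -1, and so out of the size rule, in 15 of those 31 recalculations. Without LOC cell 9 and MOC cells 8 and 12, the libraries with the most microglial reads, the difference of -0.996 fell just short of the rule. Exons of Zmat5 overlap those of Cabp7 on the other strand, and such reads cannot be told apart in libraries that keep no strand. Zmat5 had 4.56 CPM for LOC and 6.09 CPM for MOC.

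**Figure D3:**
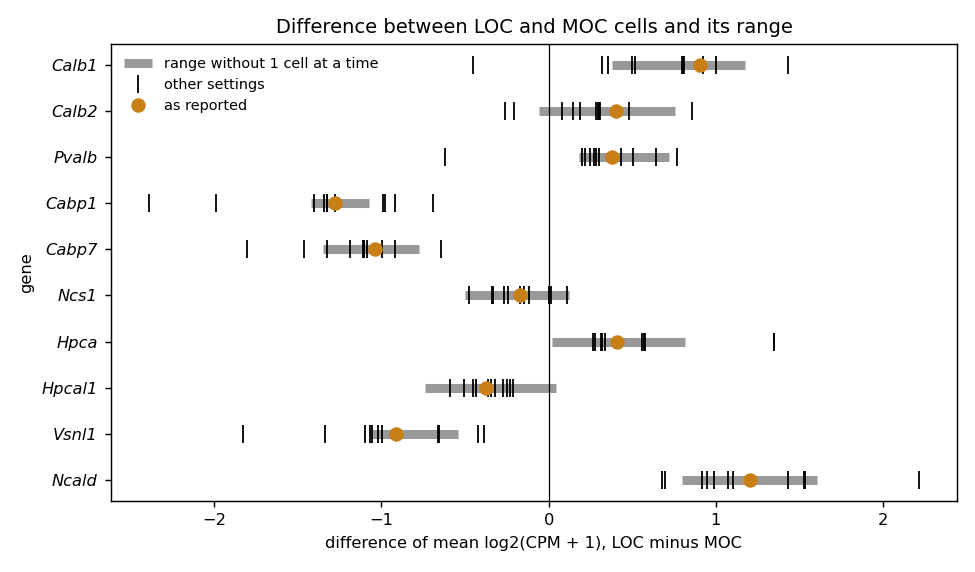
Difference of mean log2(CPM + 1), LOC minus MOC, on the horizontal axis for each gene (dot), its range when each of the 31 cells is left out in turn (grey bar) and its value under the other settings (ticks). Cabp1, Cabp7 and Vsnl1 lie below 0 under every setting shown and Ncald and Hpca above 0 (Hpca as low as 0.02), whereas Calb1 runs from -0.45 to 1.43.

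Among the sensors, Ncald had the widest difference toward LOC. Ncald encodes neurocalcin delta, a sensor that binds membranes when calcium is bound, and lies on chromosome 15 at 37366175 to 37792570 (minus strand, ENSMUSG00000051359). The lowest, median and highest cell had 0, 114 and 471 CPM for LOC and 0, 41.3 and 816 CPM for MOC. The highest MOC cell was MOC cell 13, the library with 1740 CPM of Camkv and 1 cholinergic read, and it held 50% of the MOC counts. The summed level was 134 CPM for LOC (128 to 140.0) and 83.2 CPM for MOC (78.5 to 88.2), a ratio of 1.61 that misses the size rule. The mean was 6.06 ± 2.37 in LOC and 4.85 ± 2.46 in MOC, a difference of 1.20.

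Without MOC cell 13 the MOC level of Ncald was 43.9 CPM and the difference 1.60, and Ncald then met the size rule in LOC. It also met it in libraries with at least 10 cholinergic reads, with 138 CPM in 14 LOC cells and 24.2 CPM in 8 MOC cells and a difference of 2.21. In those libraries the median was 101 CPM for LOC, where cells reached 471 CPM, and 21.7 CPM for MOC, where none was above 52.0 CPM. The values still overlapped, since LOC cell 8 had 0 CPM and LOC cell 2 had 12.8 CPM. The limit of 10 cholinergic reads left out MOC cells 13 (816 CPM), 8 (148 CPM) and 12 (110 CPM), the highest of the group. It also left out MOC cells 4 (4.82 CPM) and 9 (41.3 CPM). MOC cell 12 missed the limit with 9 cholinergic reads. In the 11 libraries with few granule cell reads, Ncald had 187 CPM for LOC and 176 CPM for MOC, with a difference of 0.70. This set includes LOC cell 14 (156 CPM) and MOC cell 13 (816 CPM). Its medians were 155 CPM for LOC and 52.0 CPM for MOC.

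Vsnl1 encodes visinin-like 1, a sensor found in many brain neurons, and lies on chromosome 12 at 11325242 to 11436613 (minus strand). Single cells had a lowest, median and highest level of 0, 109.8 and 443 CPM for LOC and 51.3, 144 and 666 CPM for MOC. Every MOC cell had reads, the cell at 0 was LOC cell 1, and the highest LOC cell was LOC cell 14. The summed level was 127 CPM for LOC (121 to 133) and 170.4 CPM for MOC (164 to 177). Its mean was 6.37 ± 2.07 in LOC and 7.28 ± 0.96 in MOC, and the difference of -0.91 became -0.54 without LOC cell 1 and -1.34 with at least 10 cholinergic reads. The ratio of 0.74 and the difference of -0.91 both kept Vsnl1 outside the size rule.

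Hpcal1, the gene of hippocalcin-like 1, lies on chromosome 12 at 17690856 to 17791933 (plus strand). Across cells the lowest, median and highest values were 0, 163 and 460.1 CPM for LOC and 7.20, 189 and 924 CPM for MOC. LOC cell 14 was the cell at 0 and MOC cell 13 the lowest of its group, while 16 of 18 LOC and 11 of 13 MOC cells held at least 100 CPM, more than for any other of the 10 genes. The summed level was 183 CPM for LOC (176 to 189.9) and 221 CPM for MOC (213 to 229). The mean difference was -0.37, and it was 0.04 without LOC cell 14.

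Hpca encodes hippocalcin, a sensor known for its high level in hippocampal pyramidal neurons, and lies on chromosome 4 at 129111570 to 129122036 (minus strand). The lowest, median and highest cell had 0, 45.3 and 687 CPM for LOC and 0, 29.7 and 728 CPM for MOC. Both highest cells, LOC cell 14 and MOC cell 13, were the libraries set apart by Camkv and Nrgn, and they held 27.4% of the LOC and 36.4% of the MOC counts. Without them the summed level was 94.6 CPM for LOC and 68.3 CPM for MOC, in place of 124 CPM (118 to 129.8) and 102 CPM (96.6 to 107). Reads were found in 15 of 18 LOC cells and 11 of 13 MOC cells. The difference of 0.41 was far inside the SDs of 3.04 in LOC and 2.96 in MOC, and it was 1.35 with at least 10 cholinergic reads. Tmem54, which overlaps Hpca on the other strand, had 0.56 CPM for LOC and 0.81 CPM for MOC.

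Ncs1, the gene of neuronal calcium sensor 1, which acts on a phosphatidylinositol kinase and on calcium channels, lies on chromosome 2 at 31245823 to 31295989 (plus strand). It was read in all 18 LOC and all 13 MOC cells. Its lowest, median and highest cell values were 10.2, 74.1 and 360.0 CPM for LOC and 4.82, 73.9 and 1020 CPM for MOC. MOC cell 2 alone held 39.8% of the MOC counts. The summed level was 133 CPM for LOC (127 to 139) and 168 CPM for MOC (162 to 175), and 109 CPM for MOC without MOC cell 2. The mean difference of -0.17 became 0.12 without that cell and was 0.00 with medians, so that no direction was seen.

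**Figure D4:**
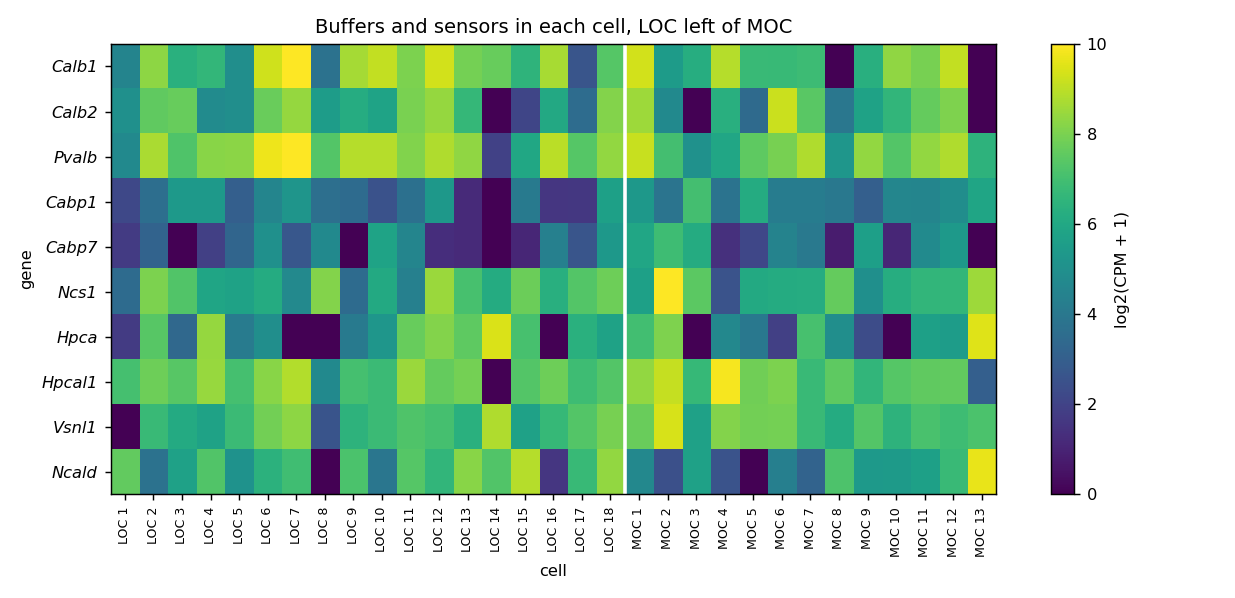
Level of each gene (rows) in each cell (columns, 18 LOC cells left of 13 MOC cells) as colour, in log2(CPM + 1). LOC cell 14 and MOC cell 13 have the highest Hpca, at 687 and 728 CPM, and both have Calb2 at 0.

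Compared per kb of exon in the summed counts, Pvalb and Hpcal1 led in both groups. Pvalb had 299 CPM per kb in LOC and 248 in MOC, and Hpcal1 had 108 and 130.4. In LOC the next were Calb2 (67.0), Vsnl1 (64.9), Calb1 (48.4), Hpca (42.4), Ncs1 (28.6) and Ncald (15.6). In MOC they were Vsnl1 (87.1), Calb2 (80.3), Calb1 (38.8), Ncs1 (36.2) and Hpca (34.9). The last places were held by Cabp7 (4.54) and Cabp1 (2.85) in LOC, and by Cabp7 (11.9), Ncald (9.70) and Cabp1 (5.83) in MOC. For every pair of neighbours in either order, the means of log2(CPM per kb + 1) differed by less than the larger of both SDs. The widest gap was that between Ncald and Cabp7 in LOC, at 1.54.

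**Figure D5:**
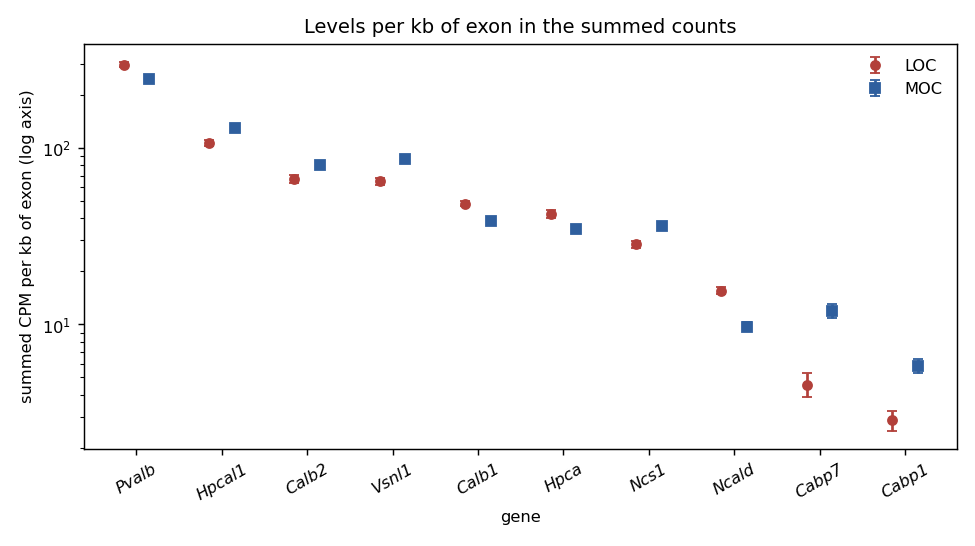
Summed CPM per kb of exon on a log axis for each gene in LOC (circles) and MOC (squares), with exact 95% Poisson intervals as bars, which cover counting error only. Pvalb is highest at 299 in LOC and 248 in MOC, and Cabp1 lowest at 2.85 and 5.83.

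The spread over all 31 cells differed between the genes. Calb1, with an SD of 2.52, was more variable than 95.4% of the 500 genes nearest to it in mean, and Hpca, with 2.96, more than 94.4%. Calb2 stood at 86.6%, Ncald at 74.4%, Pvalb at 74.0%, Hpcal1 at 69.6% and Vsnl1 at 50.6%. Below the middle were Ncs1 at 26.2%, Cabp7 at 22.2% and Cabp1 at 1.40%. Among the sensors, Hpcal1 and Vsnl1 had a rho of 0.08 over LOC cells and 0.69 over MOC cells, and Vsnl1 and Ncald 0.04 and -0.69. The difference between the groups in these values was not tested.

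Other genes of calcium binding and handling were counted by the same rule, which 6.07% of all measured genes met in LOC and 5.67% in MOC, and nothing is read from counts this small. Of 29 further EF-hand genes 21 were measured, and the rule took 0 for LOC and 2 for MOC, with a median difference of -0.11. These 2 were Cib1, a calcium- and integrin-binding protein (5.61 CPM for LOC and 26.3 CPM for MOC, difference -2.14), and Kcnip4, a subunit of A-type potassium channels (33.5 and 92.6 CPM, -1.40). Cib1 left the rule with a pseudocount of 10 (-0.88), and LOC cell 16 held 38.75% of its LOC counts. Kcnip4 left the rule in libraries with at least 10 cholinergic reads (-0.78, with 27.2 CPM for LOC and 49.3 CPM for MOC), after thinning (-0.92) and with a pseudocount of 10 (-0.96), and had -4.23 in libraries under 200 CPM of granule cell markers. It overlaps 5730480H06Rik on the other strand. Among the 8 that were not measured were the photoreceptor sensors Rcvrn and Guca1a, the inner ear genes Cabp2 and Ocm, and Scgn.

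Among 26 genes of calmodulin and its partners, the rule took 0 for LOC and 1 for MOC, with a median of -0.08. That gene was Camkv, which encodes a relative of the calmodulin kinases without kinase activity, with 43.3 CPM for LOC and 104 CPM for MOC. LOC cell 14 held 97.2% of its LOC counts and MOC cell 13 held 85.3% of its MOC counts, so that 1.25 CPM for LOC and 16.1 CPM for MOC were left without them. Camkv left the rule without MOC cell 9 (-0.79) or MOC cell 13 (-0.49). It also left it with at least 10 cholinergic reads (-0.13), with medians, after thinning (-0.93) and with a pseudocount of 10 (-0.69). The 15 calcium pumps and exchangers had a median of 0.12, with 1 gene meeting the rule in each direction. Slc24a3, a sodium-calcium-potassium exchanger, had 42.7 CPM for LOC and 18.6 CPM for MOC (difference 1.42), and Atp2b4, a plasma membrane calcium pump, 18.8 and 56.1 CPM (-1.10). Slc24a3 left the rule without LOC cell 13 (34.8 CPM for LOC). It also left it with medians (0.55), with a pseudocount of 10 (0.75) and after thinning (45.0 CPM for LOC, 26.9 CPM for MOC). Atp2b4 left the rule when any of LOC cells 13, 14, 16 and 17 and MOC cells 1, 3, 4, 6 and 13 was left out, with -0.79 for MOC cell 13. The same held with medians (-0.57), a pseudocount of 10 (-0.76), thinning (-0.16) and without both LOC cell 14 and MOC cell 13 (-0.59).

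Of 22 genes of calcium stores and mitochondrial uptake (median 0.11), the rule took 0 for LOC and 1 for MOC, namely Orai1, the pore of store-operated calcium entry. It had 11.1 CPM for LOC and 28.6 CPM for MOC, with a difference of -1.49. Without MOC cell 3 the MOC level was 19.98 CPM, without MOC cell 13 it was 21.3 CPM, and Orai1 then left the rule. It also left it in libraries with at least 10 cholinergic reads, with -0.94 (11.8 CPM for LOC, 22.7 CPM for MOC), and with a pseudocount of 10 (-0.71). LOC cell 5 held 50% of the LOC counts, and Gm2479 overlaps Orai1 on the other strand. Among 20 known targets of the sensors it took 2 for LOC and 0 for MOC, and the median was 0.42. They were Grk3, a kinase that desensitizes receptors (47.7 and 7.99 CPM, difference 1.79), and Cacna1c, an L-type calcium channel (42.0 and 6.45 CPM, difference 2.19). Reads of Grk3 were found in 16 of 18 LOC cells and 10 of 13 MOC cells. The rule held for both genes without any 1 cell.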

How the data were processed

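Libraries were made from 31 single cells by Smart-seq2 and Nextera after patch clamp and read in pairs of 75 bp, per the labels' protocols and the description of the series. The authors deposited raw read counts per gene, with 1 column per cell. The submitters' processing notes list the builds GRCm38 and mm10 and, without roles, the tools STAR 2.5.2, bcl2fastq, limma, edgeR and DESeq2. No source used here names the counting tool. The authors also deposited a normalized signal (CPM on TMM-adjusted sizes, per the file's name), used as an alternative scaling. The 19 added sequences of the 55440 rows were left out of library sizes. CPM used the total over mouse genes, and log values were log2(CPM + 1), which understates differences of low genes. Exon lengths and coordinates came from GENCODE M21 (GRCm38).

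Each library is 1 cell and no animal is named, so no test was run. Poisson intervals cover the counting of reads only, and reads carry no molecular identifiers. Clopper-Pearson intervals take the cells of a group as independent draws and take no account of animals. The floor of summed levels was 3 counts over the group. The genes and lists were chosen with earlier results of these data known, and the granule cell and forebrain lists after seeing the values. Genes named beyond the 10 were up to 4 per list that met the size rule and the 3 most like each buffer gene. The size rule was tested on simulated data. edgeR 4.0.16 and DESeq2 1.42.0 (R 4.3.3) gave size factors only. Alternatives were summed counts, medians, a pseudocount of 10, 3 other scalings, thinning to 100000 counts, restricted sets of libraries and leaving out each cell. The marker lists leave out genes that are not reported here.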

Additional observations from a re-analysis of the deposited data

How the results depend on the processing

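No paired analysis was possible because no result comes from a test and the cell numbers in the labels pair nothing. The 10 differences moved by less than 1 SD between cells under all 11 settings and all 31 recalculations without 1 cell, which is a weak limit at these SDs. The number of the 10 genes that met the size rule in MOC was 2 as reported. It was 1 with summed counts, with medians, without LOC cell 9 and MOC cells 8 and 12, which had the most microglial reads, and, in choices made after seeing the data, in libraries under 200 CPM of granule cell markers and without LOC cell 14 and MOC cell 13. It was 0 with a pseudocount of 10, and between 0 and 2 without 1 cell. In LOC it was 0 as reported, 1 (Ncald) with at least 10 cholinergic reads and without LOC cell 14 and MOC cell 13, and between 0 and 1 without 1 cell, the exception being MOC cell 13. The cause was not tested. Cabp1 left the rule when any of LOC cells 1, 2, 5, 10, 13, 14, 16 and 17 and MOC cells 3, 5 and 13 was left out, with ratios of 0.50 to 0.69. Cabp7 left it for LOC cells 1, 3, 4, 9, 12, 13, 14 and 15 and MOC cells 1, 2, 3, 6, 9, 11 and 12, with differences of -0.99 to -0.77. Camkv had a difference of 0.00 with medians, since 8 of 18 LOC and 6 of 13 MOC cells had a read. The share of measured genes past the rule, 6.07% (LOC) and 5.67% (MOC), was 16.6% and 14.2% with summed counts, 2.08% and 1.18% with a pseudocount of 10, 10.9% and 9.67% after thinning, 18% and 12.9% in libraries under 200 CPM of granule cell markers, and 2.87% and 2.68% over all genes with any read. Other scalings moved the median of all genes by -0.10 to -0.06. At this depth 3 counts in a cell come to as much as 8.42 CPM, above the median LOC cell of Cabp7 (5.44 CPM). Thinning to 100000 counts moved Cabp7 to -1.09 and Calb2 to 0.08.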
